A study of Mus musculus with 10 samples.

Results

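FR3 Klrg1- cells are mouse spleen regulatory T cells (Tregs) sorted as CD62L low, CD69 positive and Klrg1 negative, and they were measured on 4 of the series' 10 arrays. The 4 arrays were chosen by their titles. They were then split into replicates 1 and 2 and replicates 3 and 4, a split selected from the measured correlations between arrays, so differences between the pairs are given below as a description, without a test. All mice were C57BL/6, labelled female and 9 to 14 weeks old, with no treatment named. Every sample was a sort of CD4+ cells on a red fluorescent reporter of Foxp3, and 20 to 50 ng of its RNA was amplified with NuGEN kits and read on an Affymetrix Mouse Gene ST array. The other groups were FR1 (CD62L high, CD69 negative, Klrg1 negative, 2 arrays), FR2 (CD62L low, CD69 negative, Klrg1 negative, 2 arrays) and FR3 Klrg1+ (CD62L low, CD69 positive, Klrg1 positive, 1 array). A further array, with FR3 in its title and the FR1 markers behind it, was placed in no group. The protocol and characteristics text was the same for all 10 arrays, so the labels name no difference in handling between the pairs. The labels do not say whether animals were pooled.

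Tregs hold back other immune cells and depend on the transcription factor Foxp3. Immediate early genes such as Fos, Jun, Egr and Nr4a family members are transcribed within minutes of a signal through the T cell receptor or of a stress, without new protein synthesis, and their transcripts are short-lived. Many of the same signals induce feedback regulators, among them phosphatases of the Dusp family and inhibitors of NF-kB, which switch the signal off again. Heat shock proteins are chaperones that are induced, mainly through heat shock factors, when proteins unfold.

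Values are RMA log2 intensities, so a difference of 1 is 2-fold on the intensity scale. Differences are the mean of replicates 1 and 2 minus the mean of replicates 3 and 4. Over all rows, replicates 1 and 2 correlated at 0.992, replicates 3 and 4 at 0.982, and arrays of different pairs at 0.918 to 0.921. These are descriptions over rows of the same arrays. FR1 and FR2 arrays correlated with replicates 1 and 2 at 0.981 to 0.986 and with replicates 3 and 4 at 0.910 to 0.917. For the FR3 Klrg1+ array the order was turned, with 0.972 to 0.973 for replicates 3 and 4 and 0.913 for replicates 1 and 2. The FR1 and FR2 arrays and replicates 1 and 2 are called the first array set here. The remaining 4 arrays are called the second set.

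The labels and the transcripts did not match in 2 respects. Although every array was labelled female, 3 of 9 measured Y-linked genes were far higher on replicates 3 and 4. Eif2s3y, a translation initiation factor, read 3.30 and 3.20 on replicates 1 and 2 against 8.34 and 8.47 on replicates 3 and 4. Kdm5d, a histone demethylase, read 4.76 and 4.68 against 7.89 and 8.08. Uty, a demethylase homologue, read 4.31 and 4.23 against 7.34 and 7.11. All 3 were also high on the FR3 Klrg1+ array (8.09, 8.39 and 6.87) and on the array in no group (8.50, 8.19 and 7.01). The other Y-linked genes (Srsy, Sry, Uba1y, Usp9y, Zfy1 and Zfy2) differed by -0.74 to -0.03 between the pairs. Xist, the RNA that silences an X chromosome in female cells, was high on all 4 arrays, at 11.27 and 11.40 against 10.61 and 10.26. The X-linked partners of the 3 Y-linked genes were lower on replicates 3 and 4 as well. Kdm5c read 9.44 and 9.66 against 8.38 and 7.95, and Kdm6a and Eif2s3x differed by 0.50 and 0.45. For Kdm5c and Kdm6a the FR1 and FR2 arrays (9.51 to 9.67 and 9.01 to 9.43) lay above replicates 3 and 4. Xist on FR1 (10.57 and 10.75) and Eif2s3x on FR2 (10.68 and 10.64) lay nearer to replicates 3 and 4 than to replicates 1 and 2. The sex-linked genes other than Eif2s3y and Kdm5d were chosen after their values were seen. The second mismatch is the array in no group, where Klrg1 read 12.41, near the FR3 Klrg1+ array at 12.33, while the 8 arrays labelled Klrg1 negative read 5.43 to 7.47. The Y-linked transcripts follow the split exactly, so the sex of the mice, a batch and any other change between the pairs cannot be told apart.

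**Figure D1:**
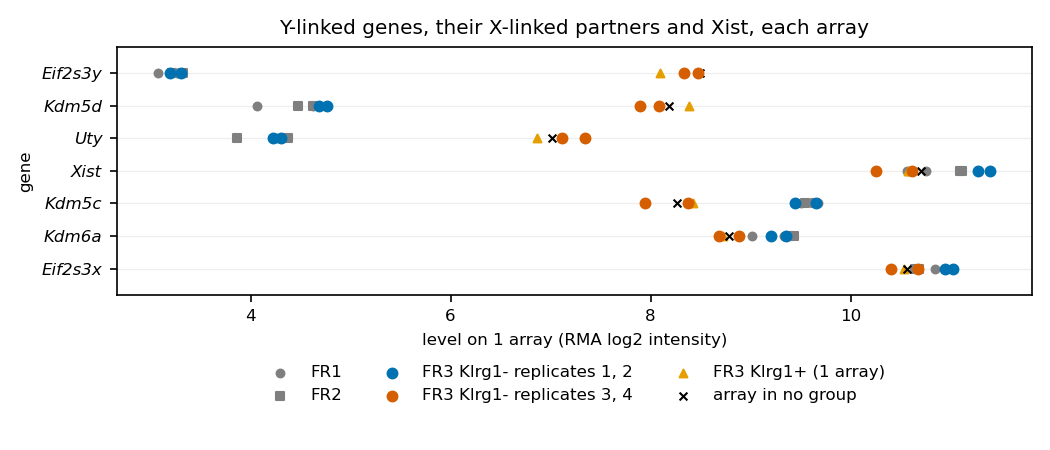
Levels of 3 Y-linked genes, Xist and 3 X-linked partners (rows) on each of the 10 arrays, as RMA log2 intensity on the x axis; each point is 1 array and colours mark the groups. The 4 arrays of the second set lie at 6.87 or above for Eif2s3y, Kdm5d and Uty, and the other arrays at 4.76 or below.

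Genes of the sort were measured on every FR3 Klrg1- array. Cd69, the activation marker of the gate, read 12.02 and 12.15 on replicates 1 and 2 and 10.24 and 9.73 on replicates 3 and 4. The CD69 negative FR1 and FR2 arrays read 11.86 to 12.41, so the Cd69 transcript was lower on replicates 3 and 4 of the CD69 positive gate than on any FR1 or FR2 array. The array in no group, whose marker text also says CD69 negative, read 9.86, and FR3 Klrg1+ read 9.86. Klrg1, a receptor of differentiated lymphocytes, read 7.21 and 6.54 against 7.27 and 7.47, and its pairs lay within 1 log2 unit of each other. Foxp3 read 10.70 and 10.65 against 9.63 and 9.95. Cd4 read 11.65 and 11.61 against 10.03 and 9.86. For both genes replicates 1 and 2 were the higher pair and the arrays did not overlap. The mean of 8 T cell markers was 11.06 to 11.60 on the 4 arrays. The means of 10 marker lists of other cell types (80 genes) lay between 4.36 and 6.91.

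A gene was counted where the pair means differed by at least 2-fold and the arrays of the pairs did not overlap. By this rule 1051 of 19938 genes were higher on replicates 1 and 2 (5.27%) and 1011 were lower (5.07%). Within a pair, 6 genes differed by 2-fold or more between replicates 1 and 2, and 55 between replicates 3 and 4. The median absolute difference was 0.11 and 0.18 within the pairs and 0.28 between them. The median signed difference was -0.02. It was 0.07 after quantile normalization or after centring each array on its median. Of the 2062 counted genes, the FR1 and FR2 mean lay nearer to replicates 1 and 2 in 1981. The FR3 Klrg1+ array lay nearer to replicates 1 and 2 in 133, and the array in no group in 122. The array sets were named from correlations over these same values, so these counts restate that assignment and do not support it.

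Most immediate early transcription factors differed between the pairs. Of 28 measured members, 19 were counted as higher on replicates 1 and 2 (67.9%, against 5.27% of all genes) and 1 as lower, with a median difference of 1.63. Nr4a1, an orphan nuclear receptor induced by the T cell receptor, read 11.88 and 12.10 on replicates 1 and 2 and 7.76 and 7.84 on replicates 3 and 4, a difference of 4.19 or 18.2-fold. Fosb, a subunit of the AP-1 factor, read 11.42 and 11.77 against 8.04 and 7.66 (13.4-fold). Fos read 11.02 and 11.36 against 7.84 and 8.18 (9.05-fold). In these 3 genes the gap between the pairs was far wider than the gap within either pair. Other Fos and Jun family genes were counted on the same side, with 1 exception. Junb read 10.65 and 10.82 against 7.49 and 7.92, Fosl2 8.91 and 9.19 against 6.15 and 6.21, and Jund 10.87 and 11.12 against 7.98 and 8.33. The pairs did not overlap in any of the 3, nor in Jun, which differed by 1.61. Fosl1 read 5.94 and 5.81 against 6.01 and 5.68, so its pairs overlapped. Jun and Fosl1 were named after their values were seen.

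Further members were factors of other families. Klf4, a Krüppel-like factor, read 9.40 and 9.47 against 6.72 and 6.59. Atf3, a stress-induced relative of the CREB factors, read 8.82 and 9.32 against 6.27 and 6.56. Nr4a3 and Nr4a2, relatives of Nr4a1, differed by 2.42 and 2.12. Bhlhe40, a basic helix-loop-helix repressor, differed by 2.23 and Ier2 by 1.95. Myc, the growth regulator, was the member over a mean level of 8 with the difference nearest 0. It read 10.07 and 10.11 against 9.61 and 10.31, and replicates 3 and 4 lay on either side of the other pair. For Nr4a1, Fos, Fosb and Junb, the FR3 Klrg1+ array (7.65, 7.92, 8.15 and 8.05) lay with replicates 3 and 4, and the FR1 and FR2 arrays (10.55 to 12.42 over the 4 genes) with replicates 1 and 2.

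**Figure D2:**
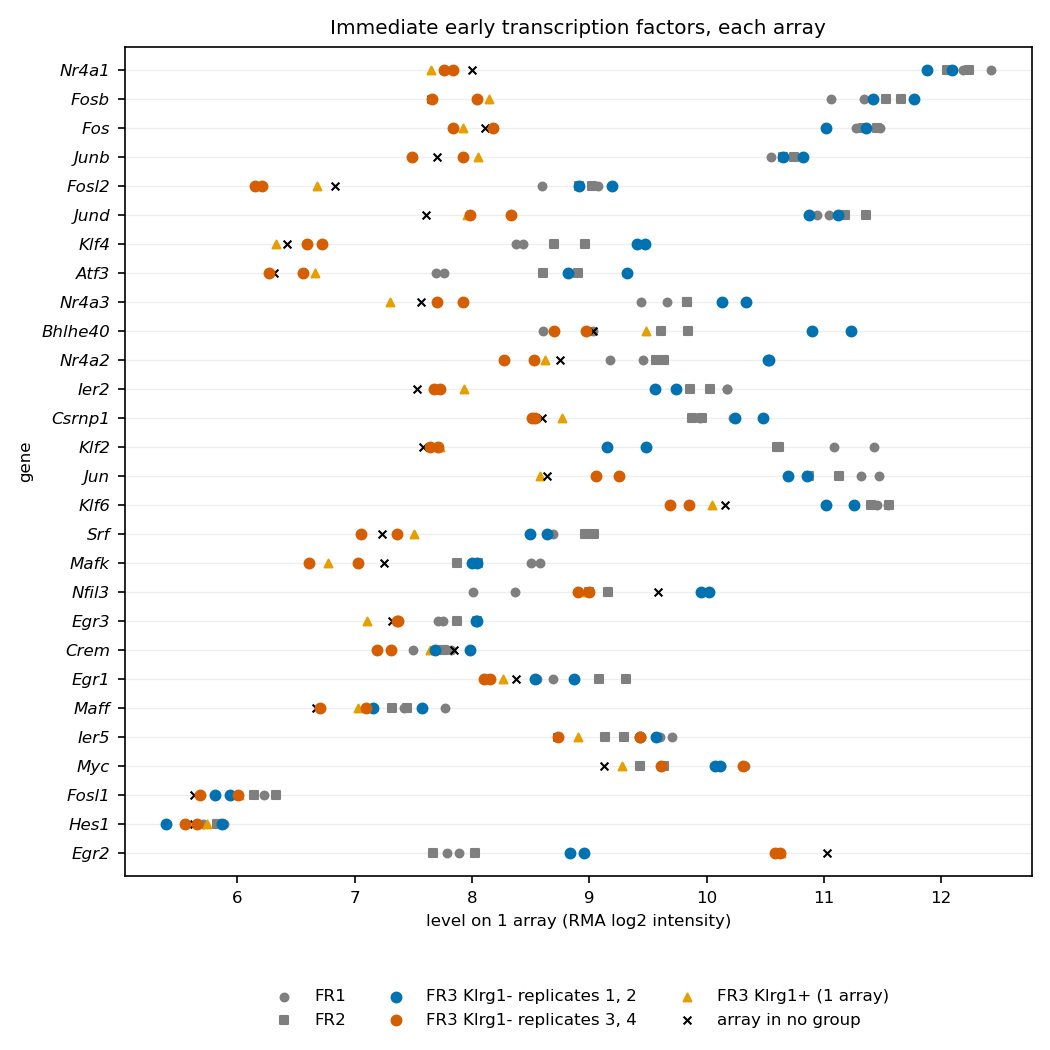
Level of 28 immediate early transcription factors (rows, ordered by difference) on each of the 10 arrays, as RMA log2 intensity on the x axis; each point is 1 array. Replicates 3 and 4 lie to the left of replicates 1 and 2 for the 19 counted genes at the top and to the right for Egr2 at the bottom.

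Egr2 was the 1 member that went the other way, and it is described here because of that value. Egr2, a zinc finger factor that restrains T cell activation, read 8.84 and 8.96 on replicates 1 and 2 and 10.59 and 10.62 on replicates 3 and 4. Its relatives Egr1 (8.54 and 8.87 against 8.10 and 8.15) and Egr3 (8.04 and 8.03 against 7.37 and 7.36) were less than 2-fold apart, in the direction of the list. The promoters of Fos and Egr2 are shown because these genes moved in opposite directions (RefSeq, GRCm38.p6, 250 bases before to 50 after the start of transcription, on the strand of the gene). The Fos window is chr12:85473640-85473939 on the plus strand. The Egr2 window is chr10:67537619-67537918 on the plus strand, and capitals mark a CArG box, the core bound by serum response factor.
Fos: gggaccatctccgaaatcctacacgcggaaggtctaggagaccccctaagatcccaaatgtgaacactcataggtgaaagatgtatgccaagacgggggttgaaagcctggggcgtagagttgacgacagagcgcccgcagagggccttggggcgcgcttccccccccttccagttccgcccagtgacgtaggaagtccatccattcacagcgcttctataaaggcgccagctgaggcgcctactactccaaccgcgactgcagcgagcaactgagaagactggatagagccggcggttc
Egr2: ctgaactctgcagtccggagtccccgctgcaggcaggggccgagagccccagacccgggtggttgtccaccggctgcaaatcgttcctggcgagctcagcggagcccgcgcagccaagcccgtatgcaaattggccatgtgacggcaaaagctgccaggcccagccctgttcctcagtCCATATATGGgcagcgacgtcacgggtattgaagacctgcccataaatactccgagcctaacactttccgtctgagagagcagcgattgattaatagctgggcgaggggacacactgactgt
Both strands were searched for the CArG box and for the cAMP response element TGACGTCA. The Fos window held neither, and 4 of the 5 Egr2 windows in the table held a CArG box. Some of these Egr2 windows overlap and share the same site. Only exact matches inside a window were found, so a site further away or with a changed base would be missed. Whether either element bears on the direction of the 2 genes was not tested. Over the first window of each of 27025 genes, 1.57% held a CArG box and 1.88% the cAMP response element. Among 20 immediate early transcription factors with a window, 1 and 0 held them by the same count. The most upstream Egr2 window, chr10:67535249-67535548, held no CArG box. Shares over 1 window per gene cannot be set against the count over the 5 Egr2 windows. A match is a run of letters and no evidence of binding.

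Feedback regulators of these pathways were higher on replicates 1 and 2 in 27 of 37 measured members (73.0%) and lower in 0. Their median difference was 1.78. The shares of all genes were 5.27% higher and 5.07% lower, and 13.5% and 10.7% at levels of 8 to 10. Gadd45b, a stress sensor upstream of p38 kinase, read 11.56 and 11.63 against 7.70 and 7.03 (18.7-fold). Sik1, a salt-inducible kinase, read 11.02 and 11.34 against 7.52 and 7.71. Dusp4, a phosphatase of MAP kinases, read 11.13 and 11.02 against 7.43 and 7.61. These genes shared the step seen for Nr4a1, and in each the lower array of replicates 1 and 2 was over 3 log2 units above the higher array of replicates 3 and 4. The kinase Pim1 (12.01 and 12.05 against 8.32 and 9.05) and Tnfaip3, the A20 inhibitor of NF-kB (12.67 and 12.92 against 9.53 and 9.69), followed. Among members over a mean level of 8, Rgs1, a regulator of G protein signalling, was nearest 0 at 10.64 and 10.69 against 10.56 and 10.33.

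The NF-kB list had 8 of 18 members higher (44.4%) and 1 lower (5.56%), with a median of 0.93. The shares of all genes were 5.27% and 5.07%. The NF-kB inhibitors Nfkbia (12.47 and 12.50 against 9.88 and 10.27) and Nfkbie, which are also in the feedback list, and the subunits Nfkb2 (9.66 and 9.93 against 7.78 and 7.99) and Relb (8.95 and 8.92 against 7.08 and 7.13) were among those higher. Rela, the subunit that carries most of the canonical signal, differed by -0.05. Cflar, an inhibitor of death receptor signalling, was the member that was lower, at 9.14 and 9.05 against 11.40 and 11.12.

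Of 22 surface and secreted genes induced by the T cell receptor, 5 were higher (22.7%) and 2 lower (9.09%). Over all genes the shares were 5.27% and 5.07%. The costimulatory receptor Tnfrsf9 read 11.86 and 11.75 against 10.00 and 10.03. Cd83, a surface glycoprotein of activated cells, read 11.02 and 11.00 against 9.04 and 9.16. Xcl1, a chemokine, went the other way at 5.94 and 5.75 against 8.72 and 8.63, and so did the CD40 ligand gene Cd40lg (6.98 and 6.84 against 8.50 and 8.07). The direction was therefore not shared by all genes downstream of the T cell receptor. Treg identity genes were higher in 8 of 23 members (34.8%) and lower in 0, with a median of 0.79. Lrrc32, which holds latent TGF-beta at the cell surface, read 10.61 and 10.51 against 7.73 and 7.88. Tgfb1, the TGF-beta gene, read 10.04 and 10.49 against 8.35 and 8.20. Il2ra, the high-affinity IL-2 receptor chain, differed by -0.72 and was not counted.

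Heat shock genes, in contrast, were mostly similar. Of 29 measured heat shock and chaperone genes, 1 was counted as higher on replicates 1 and 2 (3.45%) and 2 as lower (6.90%). The shares of all genes were 5.27% and 5.07%, and the median difference of the list was 0.05. Its mean level was 8.76 to 8.86 on the 4 arrays. At levels of 8 to 10, 13.5% of all genes were higher and 10.7% lower, so the list was counted less often than genes of its level. Dnajb1, a co-chaperone of Hsp70, read 9.25 and 9.21 against 8.26 and 7.93. Hspe1, the mitochondrial co-chaperonin, read 10.52 and 10.62 against 12.39 and 12.19, and the Hsp70 nucleotide exchange factor Bag1 read 8.48 and 8.60 against 11.09 and 10.94. The major chaperones stayed under the 2-fold line, with Hspa8 at 12.93 and 13.06 against 12.26 and 12.14, Hsp90aa1 at 12.14 and 12.38 against 11.79 and 11.51, and the stress-inducible Hspa1a at 6.71 and 6.84 against 5.85 and 6.15. The arrays of these 3 genes still did not overlap, and replicates 1 and 2 were the higher pair in each. Other chaperones were the reverse without overlap, among them Hspd1 (10.42 and 10.50 against 11.17 and 10.76) and Hspa4 (9.93 and 9.73 against 10.35 and 10.23). In all, 16 of the 29 genes differed upward. Among members over a mean level of 8, Fkbp4, a co-chaperone of Hsp90, was nearest 0, at 8.61 and 8.60 against 8.61 and 8.51. Hspa8, Hsp90aa1, Hspa1a, Hspd1, Hspa4, Egr1, Egr3 and Il2ra were chosen after their values were seen.

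**Figure D3:**
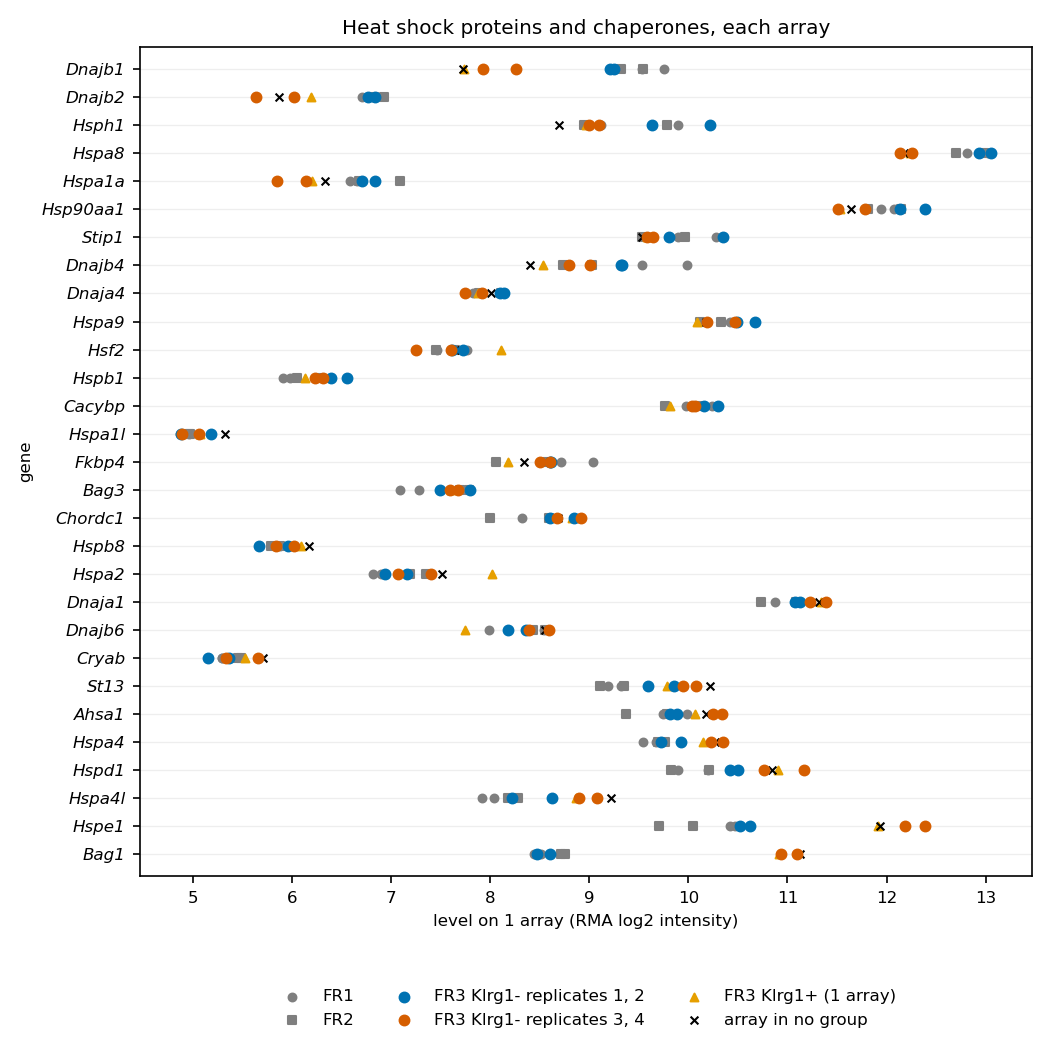
Level of 29 heat shock and chaperone genes (rows, ordered by difference) on each of the 10 arrays, as RMA log2 intensity on the x axis; each point is 1 array. The points of both pairs lie close together in most rows, and Dnajb1 at the top and Hspe1 and Bag1 at the bottom are the 3 counted genes.

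The promoters of Hspe1 and Hsph1 are shown because they hold the same element while their differences had opposite signs. Hsph1, a relative of Hsp70, read 9.64 and 10.22 against 9.00 and 9.10, less than 2-fold apart, and it was chosen after its values were seen. The heat shock element was searched as GAANNTTCNNGAA and its reverse complement TTCNNGAANNTTC, and matches may overlap. Capitals mark it in the windows chr1:55087898-55088197 (plus strand, Hspe1) and chr5:149636266-149636565 (minus strand, Hsph1) of RefSeq on GRCm38.p6.
Hspe1: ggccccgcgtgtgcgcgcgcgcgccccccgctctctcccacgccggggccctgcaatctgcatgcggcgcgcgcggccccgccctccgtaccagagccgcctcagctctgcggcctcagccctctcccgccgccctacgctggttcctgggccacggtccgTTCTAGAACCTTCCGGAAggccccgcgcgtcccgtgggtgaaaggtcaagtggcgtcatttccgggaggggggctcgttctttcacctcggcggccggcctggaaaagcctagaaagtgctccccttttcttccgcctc
Hsph1: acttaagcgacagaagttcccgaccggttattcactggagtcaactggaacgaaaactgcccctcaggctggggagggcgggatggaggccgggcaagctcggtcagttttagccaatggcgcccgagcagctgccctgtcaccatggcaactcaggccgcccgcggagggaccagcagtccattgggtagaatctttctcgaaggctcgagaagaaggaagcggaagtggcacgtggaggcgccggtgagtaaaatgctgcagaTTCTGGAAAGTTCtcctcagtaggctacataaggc
The element was in the window of 4 of 24 heat shock genes with a promoter in the table and of 0.529% of all 27025 genes. The others were Dnajb6, at 8.18 and 8.36 against 8.59 and 8.40, and Chordc1, at 8.61 and 8.85 against 8.92 and 8.68. Neither was counted. Among the 4 genes that held the element, the difference between the pairs thus ranged from -1.72 to 0.88.

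Other stress lists, apart from that of p53, held counted genes on both sides. In the unfolded protein and integrated stress response, 5 of 29 genes were higher (17.2%) and 1 lower (3.45%), with a median of 0.28. Ddit4, an inhibitor of mTORC1, read 8.65 and 8.80 against 6.41 and 7.10. Hspa5, the chaperone BiP of the endoplasmic reticulum, read 12.38 and 12.26 against 10.74 and 10.95. Ddit3, the factor CHOP, was the gene that was lower, at 7.98 and 8.06 against 9.11 and 9.18. In the oxidative stress and hypoxia list, 2 of 32 genes were higher (6.25%) and 1 lower (3.13%), near the shares of all genes, with a median of 0.01. The counted genes included the autophagy receptor Sqstm1 at 11.00 and 10.98 against 8.76 and 8.93, and the mitochondrial protein Higd1a at 7.34 and 7.89 against 9.71 and 9.59. Of 24 genes of the p53 response and apoptosis, 5 were higher (20.8%) and 0 lower, led by Trp53inp1 (12.59 and 12.69 against 11.05 and 10.98) and Bcl2l11, the gene of BIM (8.57 and 8.62 against 7.06 and 7.14). Of 24 type I interferon genes, 2 were higher (8.33%) and 1 lower (4.17%), against 5.27% and 5.07% of all genes. Irf1, an interferon regulatory factor, read 10.97 and 11.05 against 8.76 and 8.96, and Ifit3 read 6.42 and 6.07 against 9.09 and 8.71.

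Replicates 3 and 4 were the higher pair for many genes of mitochondria and of protein degradation. Of 39 oxidative phosphorylation genes, 16 were lower on replicates 1 and 2 (41.0%, against 5.07% of all genes) and 3 higher, with a median of -0.52. The complex I subunit Ndufa1 read 8.34 and 8.47 on replicates 1 and 2 and 11.21 and 11.28 on replicates 3 and 4. The complex I subunits Ndufs6 (8.13 and 8.33 against 10.54 and 10.65) and Ndufb9 (8.48 and 8.43 against 10.77 and 10.85) followed. Ndufs1, the large core subunit of the same complex, read 9.04 and 8.99 against 9.15 and 8.89. Members of complex I thus ranged from no visible step to one of almost 3 log2 units. The 3 counted as higher, named after their values were seen, were the ATP synthase subunits Atp5a1 and Atp5d (1.53 and 1.57) and the complex III core protein Uqcrc1 (1.06).

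Of 34 proteasome genes, 10 were lower on replicates 1 and 2 (29.4%) and 0 higher (median -0.34). Over all genes 5.07% were lower and 5.27% higher. The core subunits Psma6 (a difference of -1.85) and Psma7 (9.69 and 9.74 against 11.60 and 11.48) led, and the ATPase subunit Psmc4 differed by -0.05. Of 77 mitochondrial ribosomal protein genes, 23 were lower (29.9%) and 1 higher (1.30%), with a median of -0.39. Of 61 cytosolic ribosomal protein genes, 5 were lower (8.20%) and 3 higher (4.92%), nearer the shares of all genes. Their mean level was 11.38 to 11.47 on the 4 arrays, and from level 10 upward 10.8% of all genes were lower and 14.1% higher. The median of the cytosolic list was -0.08, and 0.01 with arrays centred on their medians. Zinc finger genes named Zfp were lower in 46 of 347 (13.3%) and higher in 7 (2.02%). In glycolysis 4 of 17 genes were higher on replicates 1 and 2 (23.5%) and 0 lower. Among the 4 were lactate dehydrogenase Ldha (11.50 and 11.46 against 9.83 and 10.27), pyruvate kinase Pkm (10.73 and 10.65 against 8.72 and 9.15) and the lactate transporter Slc16a1 (9.09 and 9.05 against 7.33 and 7.05). In all, 4 of 17 glycolysis genes and 19 of 39 oxidative phosphorylation genes were counted, and the 3 oxidative phosphorylation genes named above lay on the side of the glycolysis genes. In bulk RNA of sorted cells, fewer cells that express a gene and less RNA of it per cell cannot be told apart.

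**Figure D4:**
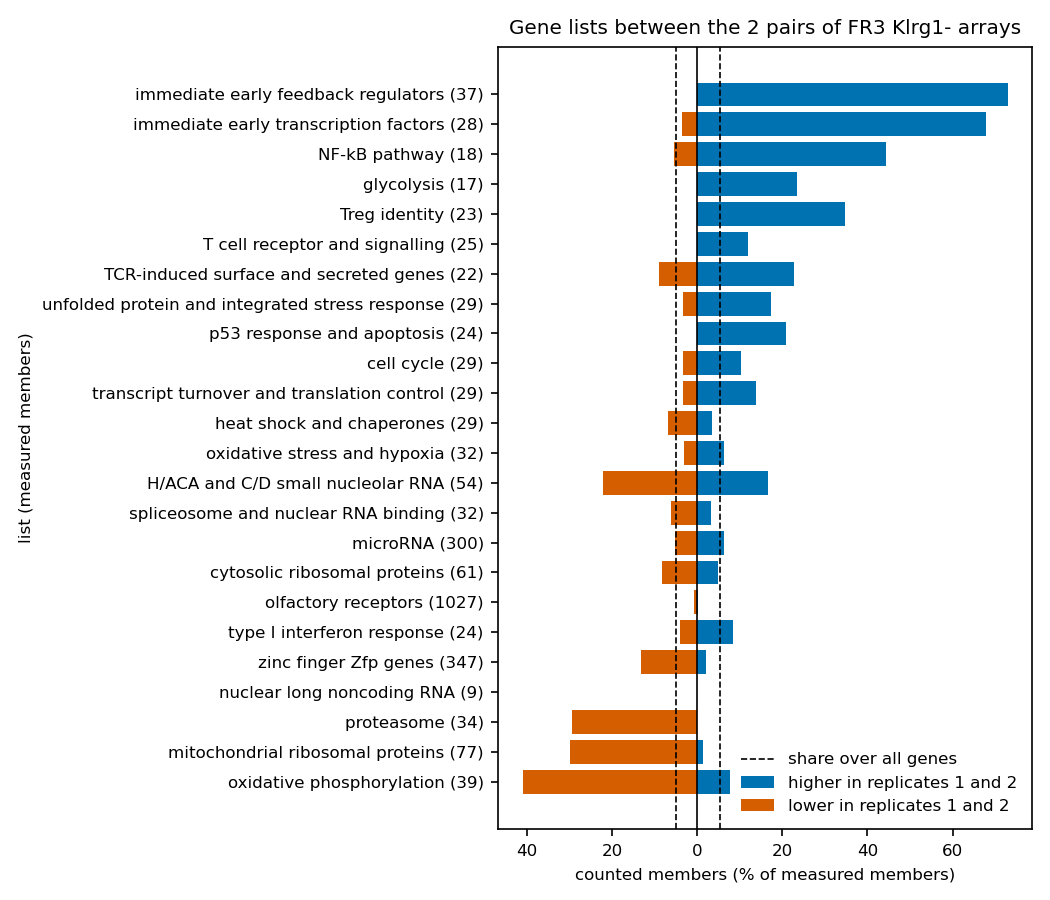
Percent of the measured members of each list (rows, number measured in brackets, ordered by median difference) that were counted as higher (blue, to the right) or lower (orange, to the left) on replicates 1 and 2. Dashed lines mark the shares over all genes, 5.27% and 5.07%; the 2 immediate early lists reach 67.9% and 73.0%, and the heat shock list stays near the lines.

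Among genes other than receptor segments and predicted, olfactory receptor and small RNA genes, which the naming rule leaves out, the 10 highest on replicates 1 and 2 were Gadd45b, Nr4a1, Fosb, Sik1, Dusp4, Pim1, Tnfaip3, Fos and Junb together with H2-Q4, a class Ib antigen-presenting gene (11.06 and 10.98 against 7.39 and 7.60). H2-Q4 has near-identical relatives in its locus, so its probes may also take signal from them. The other 9 are members of the 2 immediate early lists. The 10 lowest, none of them a member of the lists, were Eif2s3y and Kdm5d, described above, and 8 other genes. Rnf7, a ring finger subunit of ubiquitin ligases, read 8.63 and 8.74 against 12.35 and 12.23. Malsu1, a mitoribosome assembly factor, read 7.85 and 7.94 against 11.43 and 11.37. Cops9, a subunit of the COP9 signalosome, read 8.97 and 9.25 against 12.22 and 12.32. Ccdc58, Mtres1, Ndufaf2, Mettl21c and Lsm5 differed by -3.46 to -3.13.

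Counted genes were found mostly at higher levels. Of 1330 genes with a mean level under 4, 0 were higher and 8 lower on replicates 1 and 2. Of 4102 genes between 8 and 10, 555 (13.5%) were higher and 440 (10.7%) lower. Of 817 genes from level 10 upward, 14.1% were higher and 10.8% lower. The shares of all genes set beside the lists above are not matched for level, and many of those lists had mean levels over 8. Among protein-coding genes over a level of 8, the median GC content of the promoter window was 63.0% in genes higher on replicates 1 and 2, 59.3% in genes lower and 61.7% in the rest. Between 82.5% and 83.2% of these genes had a window. The median length of the gene on the genome was 20.5 kb in genes higher, 15.6 kb in genes lower and 30.9 kb in the rest. The order was another over all genes, where the median GC content was 62.7% in genes higher, 58.0% in genes lower and 57.0% in the rest, and the median length 18.3, 14.8 and 18.0 kb. In both scopes genes lower on replicates 1 and 2 had the shortest median length of the 3 classes. Of 726 genes that RefSeq classes as long noncoding RNA, 47 were lower (6.47%, near the 5.07% of all genes). Another 4 were higher (0.551%, against 5.27% of all genes). Malat1, an abundant nuclear long noncoding RNA, read 12.82 and 12.32 against 12.48 and 12.42.

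Single small RNA genes held some of the widest gaps, and those named here were chosen after their values were seen. On this array their probe sets read RNA from the locus and not the mature microRNA alone. Of 300 microRNA genes, 19 were higher on replicates 1 and 2 (6.33%) and 16 lower (5.33%), against 5.27% and 5.07% of all genes. The list mean was 5.06 to 5.12 on the 4 arrays. At levels of 4 to 6, 0.226% of all genes were higher and 1.44% lower. Set beside genes of that level, microRNA genes were counted more often in both directions. The widest steps downward were those of Mir465 (2.37 and 2.42 against 5.85 and 6.09), Mir103-2 (5.37 and 4.97 against 8.47 and 8.36) and Mir202 (3.74 and 3.81 against 7.22 and 6.49). Mature microRNAs of 2 genomic clusters that held several of the higher loci are shown with their seeds (bases 2 to 8, which pair with targets) in capitals, from RefSeq on GRCm38.p6, where 271 of the 300 genes had a sequence. They come from a chromosome 8 cluster (chr8:84208563-84208583 for miR-23a-3p) and from the miR-17-92 cluster on chromosome 14 (chr14:115044048-115044070 for miR-19a-3p).
miR-23a-3p: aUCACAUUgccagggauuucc
miR-27a-3p: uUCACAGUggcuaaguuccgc
miR-24-3p: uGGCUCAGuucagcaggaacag
miR-19a-3p: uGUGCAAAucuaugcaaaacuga
miR-19b-3p: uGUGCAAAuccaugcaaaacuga
miR-19a-3p and miR-19b-3p have the same seed, and the seeds of the other 3 differ. In the chromosome 8 cluster Mir27a read 9.36 and 9.79 against 5.84 and 5.51, Mir23a 9.19 and 9.60 against 7.23 and 7.28, and Mir24-2 7.71 and 7.77 against 5.72 and 5.80. All 3 members of the cluster were on the same side. In the chromosome 14 cluster Mir19a read 5.94 and 5.91 against 2.93 and 3.18, and Mir19b-1 read 7.37 and 7.60 against 5.08 and 5.04. Mir20a differed by 1.49, while Mir17 (-0.19) and Mir18 (0.25) of the same cluster were not counted. Loci read from 1 cluster thus did not step together. Small nucleolar RNA genes, which guide the modification of ribosomal RNA, were higher in 9 of 54 (16.7%) and lower in 12 (22.2%). They were thus counted more often than all genes, but in both directions. The widest step upward among all genes was that of n-R5s136, a gene of 5S ribosomal RNA, at 11.84 and 11.66 against 7.30 and 7.67, and Rmrp, the RNA of RNase MRP, read 11.81 and 12.16 against 8.44 and 9.05.

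Rows of the table without a gene symbol differed more than named rows. Of 12146 such rows, 1236 were higher on replicates 1 and 2 (10.2%) and 1802 lower (14.8%), against 10.9% of the 21789 rows with 1 symbol in both directions together. The excess lay in 1 stretch of identifiers. Of the 6617 unnamed rows whose identifier is below that of every named row, 953 were higher and 1384 lower, 35.3% in all, and their median absolute difference was 0.70. Of the 5529 other unnamed rows, 283 were higher and 418 lower, 12.7% in all. The spread within a pair was wider in the first stretch as well, with a median absolute difference of 0.28 between replicates 1 and 2 and 0.37 between replicates 3 and 4, against 0.11 and 0.18 in rows with 1 symbol. The probe table used here does not say what these rows measure.

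Single unnamed rows reached steps that no named gene did. Row 10339147 read 2.71 and 2.49 on replicates 1 and 2 and 10.64 and 10.45 on replicates 3 and 4, and row 10343411 read 2.68 and 2.55 against 10.30 and 10.66. In the other direction row 10339120 read 10.07 and 9.94 against 2.85 and 4.28, and row 10582896 read 11.67 and 11.58 against 5.60 and 4.85. A difference of 4 or more was reached by 83 rows of the first stretch, 17 other unnamed rows and 6 rows with 1 symbol. Of the 8 highest unnamed rows, 6 came from a run of 7 rows with consecutive unnamed identifiers from 10582882 to 10582916, and all 7 were higher on replicates 1 and 2. Some unnamed rows held the same values as others on all 10 arrays. The most frequent such profile was shared by 50 rows, at 8.96 and 9.45 against 7.24 and 5.77, so these 50 are 1 measurement. With identical rows counted once, 1183 unnamed rows were higher and 1792 lower.

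**Figure D5:**
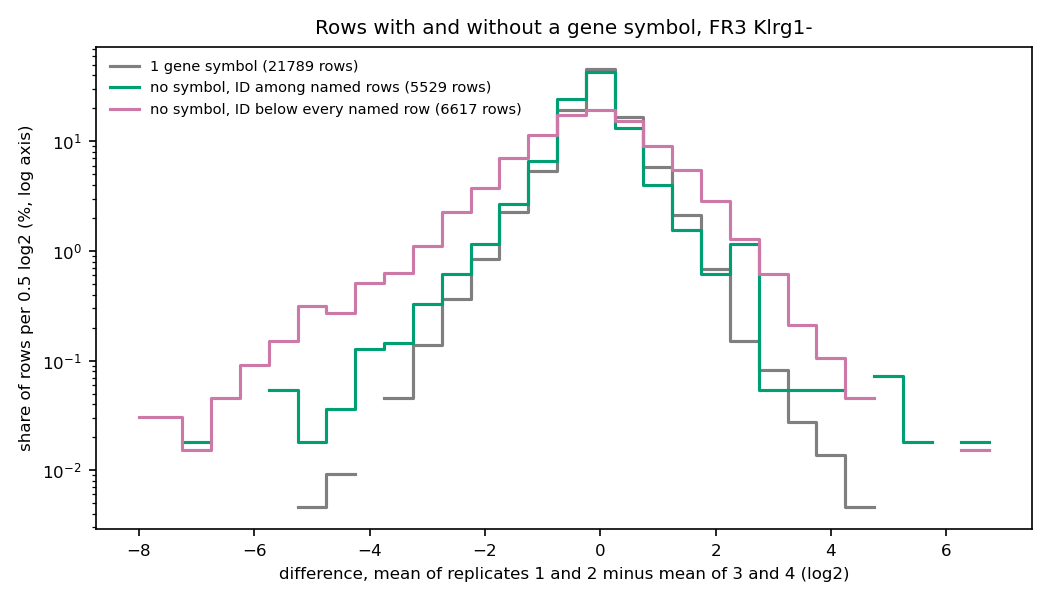
Share of rows (y axis, percent per 0.5 log2, log scale) by the difference between the pairs (x axis, log2) for rows with 1 gene symbol and the 2 classes of rows without one. The 6617 unnamed rows with identifiers below every named row have the widest spread, with 35.3% of them counted, and the rise of the other unnamed rows near 2.7 holds 50 rows with identical values.

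To set the split beside a difference between gates that it did not use, FR3 Klrg1- replicates 1 and 2 were compared with FR2 within the first set. The 6 arrays of FR1, FR2 and these replicates entered 1 limma fit with Benjamini-Hochberg adjustment over 19938 genes at 0.05. FR3 Klrg1- was higher than FR2 for 777 genes (3.9%) and lower for 541 (2.71%). These counts rest on each FR2 and FR3 Klrg1- array, while without either FR1 array they were 844 and 588. Without FR2 replicate 1 they were 261 and 224, without FR2 replicate 2 they were 574 and 276, without FR3 Klrg1- replicate 1 they were 331 and 219, and without replicate 2 they were 363 and 290. The median change of the 28 immediate early transcription factors was 0.05, and 6 rose and 3 fell. Fos (-0.21 ± 0.14 SE, limma adjusted p = 0.494), Fosb (0.00 ± 0.14, 0.998), Junb (0.04 ± 0.12, 0.923) and Nr4a1 (-0.16 ± 0.14, 0.621) did not pass. Because this comparison and the split share replicates 1 and 2, the values are set side by side only.

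Members that rose from FR2 to FR3 Klrg1- in the first set included Bhlhe40 by 1.34 ± 0.16 (limma adjusted p = 0.000121), Nr4a2 by 0.92 ± 0.13 (0.000449) and Egr2 by 1.05 ± 0.14 (0.000269). Klf4 rose by 0.61 ± 0.13 (0.00889), a call lost without FR2 replicate 2 or either FR3 Klrg1- array. Klf2, a factor of quiescent and recirculating cells, fell by 1.29 ± 0.15 (limma adjusted p = 7.69e-05). Klf2 was also among the 19 genes lower on replicates 3 and 4, at 9.15 and 9.48 against 7.64 and 7.71, and it is named here after its values were seen. Tnfrsf9 rose by 2.44 ± 0.13 (limma adjusted p = 8.54e-08) and Cd83 by 1.89 ± 0.12 (5.74e-07). The mean of FR3 Klrg1- replicates 3 and 4 lay above every FR2 array for Tnfrsf9 but not for Cd83, where 9.04 and 9.16 fell among the FR1 and FR2 values of 8.65 to 9.17. Of 37 feedback regulators 7 rose and 1 fell. Rgs16, named here after its values were seen, rose most, by 1.44 ± 0.13 (limma adjusted p = 7.53e-06). Of the genes named above, Dusp4 rose by 1.07 ± 0.13 (limma adjusted p = 0.000123) and Gadd45b by 0.80 ± 0.13 (0.00134). Of 29 heat shock genes 2 rose and 0 fell. Over all genes 3.9% rose and 2.71% fell. Of 39 oxidative phosphorylation genes 9 rose and 0 fell, with a median change of 0.27, while their median was -0.52 between the pairs.

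Markers of other cell types were counted by the same rule. Of 80 markers of 10 other cell types, 4 were counted as higher on replicates 1 and 2 and 0 as lower. Over all genes the shares were 5.27% and 5.07%. The means of the marker lists were 4.36 to 6.91. At levels of 4 to 6, 0.226% of all genes were higher and 1.44% lower, and at 6 to 8, 5.53% and 5.65%. The count is thus no result about other cell types. The 4 counted markers were Cd74 (8.53 and 8.65 against 7.57 and 7.22) and H2-Aa (7.23 and 7.35 against 6.06 and 6.51), both of antigen presentation, and Irf4 (8.76 and 8.93 against 7.61 and 7.34) and Xbp1 (9.26 and 9.43 against 8.17 and 8.46), which activated T cells also express. Of 12 measured B cell markers, 2 were counted as higher and 0 as lower. In all, 7 of the 12 differed upward, with a median difference of 0.12. The B cell genes Ms4a1 and Cd79a, named after their values were seen, read 4.32 to 4.78 and 4.21 to 5.20 on the 4 arrays. Whether other cell types were carried over in the sorts was not tested. Array medians were 6.17 and 6.19 on replicates 1 and 2 and 6.27 on replicates 3 and 4. The brightest row read 14.89 and 14.93 against 14.32 and 14.30. The part of these values in the differences above was not tested.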

How the data were processed

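Gene expression was measured on 10 Affymetrix Mouse Gene ST 1.0 arrays. The authors deposited log2 intensities made with RMA, per the submitters' processing notes. Neither the RMA version nor whether all arrays were normalized together is given in the sources used here. In all, the table has 35556 rows, of which 21789 have 1 gene symbol in the platform annotation, 1621 several and 12146 none. Each gene kept its brightest row, by the mean of the 9 grouped arrays, which left 19938 genes. No filter on low values was applied, and no value column was left unmapped. Symbols were matched to RefSeq, older ones through its synonyms.

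The split of the 4 FR3 Klrg1- arrays was described by mean differences and counts (at least 2-fold, arrays of the pairs not overlapping), computed in Python 3.11.15 with pandas 2.3.3 and numpy 2.4.6. FR3 Klrg1- replicates 1 and 2 were compared with FR2 with limma 3.58.1 in R 4.3.3 (lmFit and eBayes, 6 arrays, Benjamini-Hochberg at 0.05). The count and the fit were tested on simulated data. The number of arrays limits the precision, and the p-values measure the spread between samples labelled as biological replicates.

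The split, the 18 gene lists, 11 marker lists and 15 symbol patterns were chosen with earlier results of these data known. Genes were named by a rule: the sort genes, the 12 immediate early transcription factors and up to 5 counted members of every other list with the largest differences, the member over a level of 8 with the difference nearest 0, the 10 highest and 10 lowest genes (without receptor segments, predicted, olfactory and small RNA genes) and up to 2 counted markers per cell type. Other genes are said to be chosen after their values were seen. Alternatives were quantile normalization, arrays centred on their medians, the mean of a gene's rows, a filter at percentile 40, a difference of at least 2, overlap allowed, an intensity trend, the replicate number or the array set as a block, only the arrays compared, and leaving out each array. Counting identical rows once was added after seeing the data.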

Additional observations from a re-analysis of the deposited data

Results flagged for a closer look

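Of 196 sets of 4 values from the FR3 Klrg1- arrays (named genes and list means), 2 had 1 array far from the other 3 by Dixon's test. The usual rate of about 1 in 20 does not apply here. Many of the genes were named for a gap between the pairs, and 2 values against 2 leave little room for 1 array apart. The count is therefore no measure of how clean the arrays are. Fkbp4 read 8.51 on replicate 4 and 8.60 to 8.61 on the others. Ier5, an immediate early gene, read 8.73 on replicate 3 and 9.43 to 9.57 on the others, so replicate 4 lay with replicates 1 and 2 for this gene. Klrg1 read 12.41 on the array placed in no group, whose marker text says Klrg1 negative, against 5.43 to 7.47 on 8 arrays labelled Klrg1 negative and 12.33 on the FR3 Klrg1+ array.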

How the results depend on the processing

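With a difference of at least 2 the split gave 94 genes higher and 155 lower on replicates 1 and 2. Under the other alternatives these counts stayed within 1.5 times 1051 and 1011, at 1028 to 1280 and 837 to 1197. Leaving out each array gave 1038 to 1121 genes higher and 938 to 1197 lower. Centring arrays on their medians moved the split from 1051 and 1011 to 1280 and 837. The median of the immediate early transcription factors was 1.74 with the filter at percentile 40 and 1.50 to 1.75 when each array was left out in turn. The median of the feedback regulators was 1.87 with arrays centred on their medians. That of the heat shock genes was 0.05. It was 0.14 with arrays centred on their medians, 0.11 with the filter at percentile 40 and -0.0034 without replicate 4. No counted difference of a named gene, and neither immediate early list median, changed sign. FR3 Klrg1- against FR2 gave 261 to 844 genes higher and 219 to 588 lower when each of the 6 arrays was left out. The replicate number as a block gave 940 and 646. The numbers are not known to pair samples: with 2 numbers, deviations of same-numbered arrays correlated at 0.02 to 0.18. An intensity trend gave 1141 and 747, and a fit of all 9 arrays blocked by array set gave 561 and 387. Of 152 genes tried one by one, 29 passed, and 13 to 31 when an array was left out. With 2 arrays a pair, differences near the spread within a pair were not resolved.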
